A study of Mus musculus with 24 samples.

Results

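The 10 genes described here make up the neuregulin, ErbB and Lgi4 signalling system of peripheral nerve: the ligands Nrg1, Nrg2 and Nrg3, the proteases Bace1 and Adam17 that process neuregulin 1, the receptors Erbb2, Erbb3 and Erbb4, and the secreted protein Lgi4 with its receptor Adam22. They were found by gene name among the 56605 gene probes of an Agilent mouse array, where 25 probes carry 1 of these names, 10 of 37074 names in all. Each gene is described through its probe with the highest mean over 24 arrays, and the other probes are given as a check. A probe was tested if each of the 3 arrays of some group read it well above background, which 36409 probes met. All 10 of the brightest probes did, and 20 of the 25.

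Total RNA came from C57BL/6 mice of both sexes, from lumbar nerve roots: the ventral root, which carries efferent nerve fibres (EN), and the dorsal root, which carries afferent ones (AN). The mice were newborn (P0) or 1, 3 or 5 weeks old (written 1 W, 3 W and 5 W). No animal was treated and all were wild type. The 8 groups were set apart by fibre and age, with 3 arrays each, but array slide and scan date also differed between ages. Fibres of several animals were collected together for each group, and the methods give 3 independent experiments, so the spread between arrays is that between such collections. A dissected root holds axons and the glia, fibroblasts, vessels and blood cells around them. A change in bulk RNA cannot tell fewer cells of a type from less RNA per cell.

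Neuregulins are growth factors made by neurons and other cells. In peripheral nerve, neuregulin 1 on the axon surface binds ErbB3 on the Schwann cell. ErbB3 has little kinase activity of its own and signals through its partner ErbB2, and this signal is known to govern Schwann cell survival, migration and the thickness of the myelin sheath. Lgi4, secreted by Schwann cells, acts through ADAM22 on the axon and is needed for timely myelination.

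The 24 arrays lay on 4 slides. Slide 4 carried all 3 W arrays and replicate 3 of 5 W, while EN and AN of the same age and replicate number always shared a slide. The median spot signal ranged from 45.4 to 191 and the median local background from 23 to 46, no gene spot was saturated, and the lowest signal still well above background was 3.71 to 5.87 log2 units after normalization. On every array, 11 or 12 of 12 Schwann cell markers were well above background. A list of 16 genes of dorsal root ganglion neurons was also present, at a mean of 10.51 ± 0.15 (log2, SD, n = 3) in EN and 10.66 ± 0.69 in AN at P0. From 1 W on it lay between 7.76 and 8.75 on the EN arrays, whereas the AN arrays read 10.98 to 11.24 at 1 W, 8.64, 8.81 and 12.15 at 3 W, and 7.69 to 9.90 at 5 W. The 12.15 belonged to replicate 3, which therefore stood apart at 3 W. A list of 6 skeletal muscle genes was uneven too. Its means in AN were 13.00, 10.25 and 13.70 at 3 W, the last on replicate 3, and 13.11, 9.00 and 8.60 at 5 W. In EN they were 11.68, 11.42 and 10.68 at 3 W and 11.31, 9.81 and 9.74 at 5 W.

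A few stretches of Nrg1 are shown because its probes, which read different parts of the transcript, did not give the same picture. All lie on the minus strand of mouse chromosome 8 (mm9, the build named in the scanner files) and are written 5′ to 3′ as the array carries them. The probe for the Ig-like domain (A_55_P2874801, chr8:33068986-33069045) reads the domain found in type I and type II neuregulin 1 but not in type III, the form bound to the axon surface. The probe for the EGF-like domain (A_52_P369769, chr8:32959791-32959850) reads the part that binds ErbB receptors, which these types share, and its capitals mark cysteine codons. The last (A_55_P1985433, chr8:32928500-32928559) reads the carboxy-terminal end of the coding sequence, with the stop codon in capitals.
Nrg1, Ig-like domain: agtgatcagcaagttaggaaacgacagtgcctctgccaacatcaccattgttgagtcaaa
Nrg1, EGF-like domain: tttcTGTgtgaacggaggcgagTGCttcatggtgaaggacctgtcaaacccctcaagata
Nrg1, carboxy-terminal end: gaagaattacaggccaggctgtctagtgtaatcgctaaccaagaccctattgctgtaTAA

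Erbb4 is represented by 2 probes that cross exon junctions on the minus strand of chromosome 1, shown because only 1 of them gave signal. They share 22 bases, in capitals, and differ upstream. The first (A_51_P283698, chr1:68089291-68090519) joins that shared exon to the alternative exon of the CYT-1 form, which encodes a binding site for phosphoinositide 3-kinase. The second (A_52_P256090, chr1:68089289-68118127) joins it to the exon before, as in the CYT-2 form that skips the alternative exon.
Erbb4, exon included: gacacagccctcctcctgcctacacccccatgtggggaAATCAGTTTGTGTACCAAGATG
Erbb4, exon skipped: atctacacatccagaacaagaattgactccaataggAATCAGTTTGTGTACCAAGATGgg

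For Erbb3, the receptor whose data carry most of what follows, a second probe (A_55_P2119897, chr10:128006424-128006483, minus strand) reads the end of the coding sequence, shown with its stop codon in capitals. It serves as a separate reading of the same gene beside the brightest probe (A_52_P432949, chr10:128004749-128004808), which lies downstream of it.
Erbb3, end of coding sequence: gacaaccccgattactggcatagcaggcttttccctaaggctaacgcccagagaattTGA

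At P0 none of the 10 genes differed between AN and EN, and none of them had an unadjusted p below 0.05. Genes were called at a Benjamini-Hochberg adjusted p below 0.05 in limma, a rule that called 0.739% of all tested probes at P0. At 1 W, 3 of 10 were higher in AN (Nrg2, Nrg3 and Erbb3), where 4% of all probes were called and 2.74% were called higher. At 3 W, 2 were higher (Nrg3 and Erbb3) and Adam17 was lower, against 5.89% of all probes, 3.07% higher and 2.82% lower. At 5 W, Erbb3 and Lgi4 were higher, against 6.76% called and 3.52% higher. By the thresholds of the study's methods, an unadjusted p below 0.05 and a fold above 2, the counts from P0 to 5 W were 0, 2, 3 and 2 of 10, beside 1.12%, 4.99%, 5.64% and 5.62% of all probes. The median AN-EN difference of the 10 genes was 0.10, 0.17, 0.41 and 0.61 log2 units in order of age, beside 0.01, -0.06, -0.03 and -0.03 for all tested probes.

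**Figure D1:**
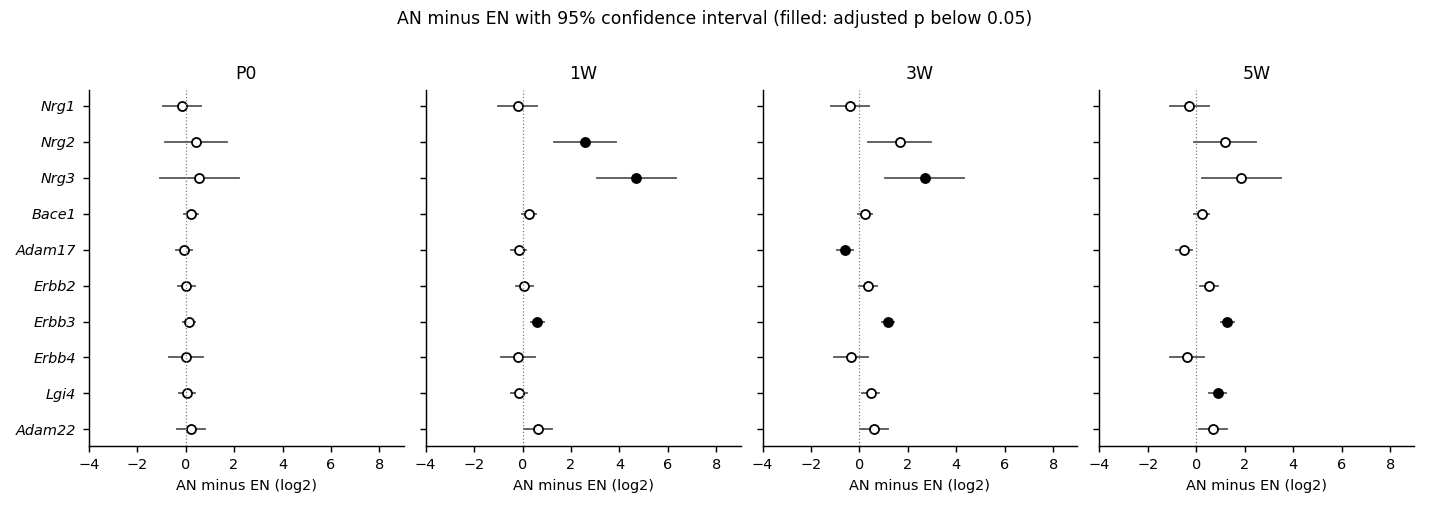
AN minus EN in log2 units (x axis) for the brightest probe of each gene at the 4 ages, with the 95% confidence interval of the limma fit as a bar and filled points where the adjusted p was below 0.05. No point is filled at P0, and Erbb3 is filled at the 3 later ages, at 0.62, 1.18 and 1.29.

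Because AN and EN arrays of the same age and number shared a slide, the comparison was also made within the 12 pairs. The deviations of such pairs from their group means correlated at 0.379 to 0.646 at P0, 1 W and 5 W, and at 0.107 to 0.214 at 3 W, where arrays of different number reached 0.116. With this replicate block, 8 of 10 genes were called at 3 W, where 21.1% of all probes were, and 5 at 5 W, where 23.5% were. The genes added at 3 W were Lgi4 (0.46, adjusted p = 0.0127) and Erbb2 (0.35, adjusted p = 0.0471), both higher in AN, together with Nrg2 (1.66, higher), Nrg1 (-0.39) and Erbb4 (-0.35). For Nrg1 this is its brightest probe, and its Ig-like probe was also lower in AN at 3 W (mean 5.95 against 6.68). Its carboxy-terminal probe (8.79 against 7.21), EGF-like probe (6.50 against 4.34) and a further probe at chr8:32925808-32925867 (5.70 against 3.42) were higher in AN. Their largest pair differences were those of replicate 3 (4.32, 4.44 and 4.76). At 5 W Erbb2 (0.53, adjusted p = 0.00858), Adam17 (-0.50) and Erbb4 (-0.38) were added. At P0 no gene was called within pairs either, beside 3.85% of all probes.

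Erbb3 showed the clearest divergence between the roots. In EN its log2 signal was 14.06, 14.17 and 14.04 at P0, 13.50, 13.75 and 13.73 at 1 W, 13.17, 13.28 and 13.14 at 3 W, and 12.49, 12.69 and 12.70 at 5 W. Each EN age lay below the one before with no overlap. In AN it was 14.24, 14.20 and 14.26 at P0, 14.24, 14.22 and 14.37 at 1 W, 14.47, 14.59 and 14.06 at 3 W, and 13.86, 14.04 and 13.84 at 5 W, so that every AN array at 5 W still exceeded every EN array from 1 W on.

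The fall of Erbb3 in EN against P0 was 0.43 ± 0.12 log2 units (SE) at 1 W (adjusted p = 0.015), 0.89 at 3 W (9.06e-06) and 1.46 at 5 W (1.66e-08), the last a 2.75-fold decrease. Erbb3 was 1 of 3 genes called in EN at 1 W, all lower, where 27.1% of all probes were called and 11.6% were called lower. In AN it fell by 0.32 log2 units from P0 to 5 W (adjusted p = 0.0378), and by 0.46 from 3 W to 5 W (0.0461), the only gene of the 10 called in that step, beside 3.67% of all probes and 1.48% lower. Its step from 3 W to 5 W in EN was a fall of 0.57 (adjusted p = 0.0209), again the only call among the 10, beside 2.25% and 0.805% lower. Each of these last 3 calls was lost when any of several single arrays was left out, with adjusted p up to 0.109, 0.168 and 0.123 in that order. Over 23 alternatives with other settings, probes or arrays, the fall in EN at 1 W lost its call in 8 (limma adjusted p up to 0.659).

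Between the roots, AN exceeded EN by 1.53-fold at 1 W (adjusted p = 0.00772, and 0.0617 without EN replicate 1), 2.26-fold at 3 W (1.73e-05) and 2.44-fold at 5 W (5.17e-06). All 9 pairs of these ages, each on a single slide, showed the direction. The pair differences were 0.74, 0.47 and 0.64 at 1 W, 1.31, 1.31 and 0.92 at 3 W, and 1.37, 1.35 and 1.14 at 5 W, against 0.18, 0.04 and 0.22 at P0. Tested directly as an interaction, the AN-EN difference was larger than at P0 by 1.03 ± 0.18 at 3 W (adjusted p = 0.00979) and by 1.14 ± 0.18 at 5 W (0.00313). Both calls were lost when all arrays of replicate 1 (adjusted p = 0.485 and 0.267) or of replicate 2 (0.379 and 0.277) were left out. In these interactions Erbb3 was the only gene of the 10 called, and 0.615% and 1.14% of all probes were called. At 1 W the interaction was 0.47 (adjusted p = 0.451), and 0.0632% of all probes were called.

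The coding probe of Erbb3 gave the same direction for the fall in EN and for the AN-EN differences from 1 W on. Its EN values were 7.45, 7.38 and 7.67 at P0 and 5.91, 6.56 and 6.83 at 5 W, a fall of 1.07 (adjusted p = 0.000334). At 1 W its EN mean was 7.36, against 7.50 at P0, with overlapping arrays. AN read 7.25, 7.44 and 7.79 at 5 W, 1.06 above EN (adjusted p = 0.00454). Its AN-EN difference was 0.32 at 1 W (adjusted p = 0.601) and 0.69 at 3 W (0.0637), its AN level at 5 W was 0.02 above that at P0, and its AN step from 3 W to 5 W was -0.22 with no call.

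Erbb2, the kinase partner of Erbb3, was called higher in AN at 3 W and 5 W in the paired fit, but not in the fit without a block. At 5 W EN read 12.17, 11.95 and 12.18 and AN 12.64, 12.46 and 12.78, groups that did not overlap, with a difference of 0.53 (95% interval 0.17 to 0.89, adjusted p = 0.0717). At P0 the difference was 0.03. The second Erbb2 probe gave 0.54 at 5 W (adjusted p = 0.14). Over the 8 groups the mean of the brighter probe moved between 12.10 and 12.65, the narrowest range of group means among the 3 ErbB receptors. The wider range of Erbb4 includes the low readings of slide 4 (9.61 to 10.30, against 10.77 to 11.60 on the other slides).

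**Figure D2:**
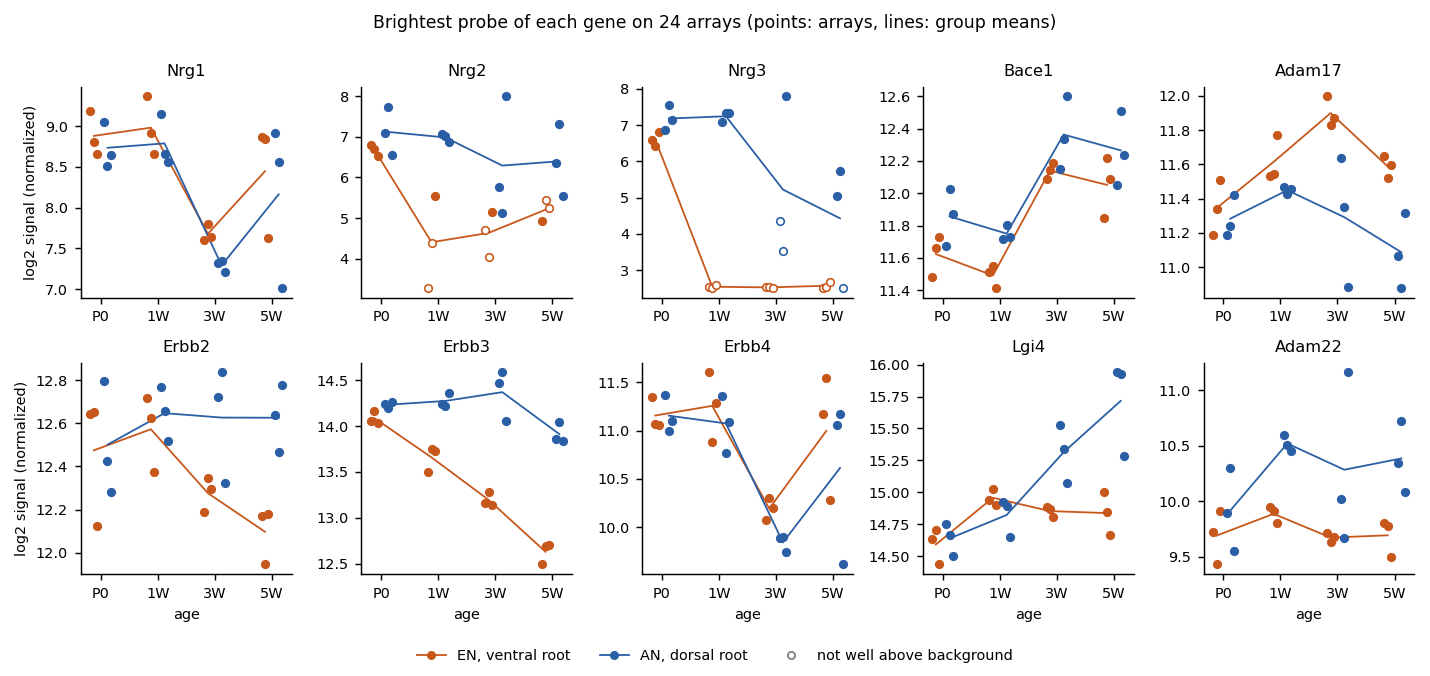
Normalized log2 signal (y axis, a separate scale in each panel) of the brightest probe of each gene by age (x axis). Points are single arrays, lines join group means, and open points were not well above background. Erbb3 separates by fibre from 1 W on, Lgi4 rises in AN to 15.94 at 5 W, and Nrg3 in EN drops to about the lowest signal on the array after P0.

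Lgi4 diverged by a rise in AN. The AN arrays read 14.75, 14.66 and 14.50 at P0, 14.92, 14.89 and 14.65 at 1 W, 15.53, 15.34 and 15.07 at 3 W, and 15.94, 15.92 and 15.29 at 5 W. EN stayed between 14.44 and 15.03 on all 12 arrays, with no change called against P0. The rise in AN was 0.68 ± 0.16 at 3 W (adjusted p = 0.00175) and 1.08 at 5 W (1.72e-05, 2.11-fold). Within slide 2, which held arrays of P0 and 5 W, it was 1.34.

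At 5 W Lgi4 was 0.88 higher in AN than in EN (1.84-fold, adjusted p = 0.00218), with pair differences of 0.94, 1.08 and 0.62. The smallest of these came from slide 4. The difference at 5 W minus that at P0 was 0.83 ± 0.23 (adjusted p = 0.0915), and the adjusted p was 0.0118 within pairs, where 6.77% of all probes were called. At 3 W the AN-EN difference was 0.46 (adjusted p = 0.102).

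The mean of the 12 Schwann cell markers also became higher in AN than in EN. It was 13.66 ± 0.01 in EN and 13.52 ± 0.06 in AN at P0, and 14.07 ± 0.09 and 14.61 ± 0.16 at 5 W. At 5 W, 4 of 12 markers were higher in AN (among them Foxd3 0.95, Gfra3 1.55 and Scn7a 2.18) and S100b was lower (-0.52), while the myelin genes Prx and Pmp22 each differed by 0.02 with no call. Erbb3 fell in EN while this mean rose from 13.66 to 14.07. Other cell types moved with the root difference at 5 W too. Markers of astrocytes were higher in AN for 4 of 7 tested, of central neurons for 5 of 7 and of oligodendrocytes and their precursors for 3 of 10, with 1 lower, and markers of fibroblasts were lower for 3 of 9. The part of these marker differences in the AN-EN results for Erbb3 and Lgi4 was not tested.

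Adam22, which receives Lgi4, had no call in any comparison. At 1 W, where the AN arrays read 10.60, 10.51 and 10.45 and the EN arrays 9.95, 9.91 and 9.81, the groups were apart by 0.63 (95% interval 0.06 to 1.20, adjusted p = 0.284). At 5 W the difference was 0.69 (adjusted p = 0.146), and at 3 W the AN arrays read 10.02, 9.67 and 11.16. A dimmer probe for another Adam22 transcript was well above background on 6 arrays, all of them AN, 3 of these at 1 W, and the remaining probe on none.

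Nrg3, a neuregulin best known from neurons, which binds ErbB4, was not detected in EN after P0. EN arrays read 6.60, 6.42 and 6.82 at P0 and between 2.51 and 2.67 on all 9 later arrays, none of which was well above background. AN arrays read 6.87, 7.54 and 7.13 at P0 and 7.08, 7.32 and 7.33 at 1 W. They then scattered, with 4.35, 3.53 and 7.79 at 3 W and 5.06, 5.73 and 2.51 at 5 W.

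At 1 W Nrg3 in AN was at least 5.16-fold higher than in EN (adjusted p = 0.00324), a lower bound because EN was below the detection limit. In EN it was at least 3.33-fold lower at 1 W than at P0 (adjusted p = 0.000844). At 3 W AN was at least 1.27-fold higher (adjusted p = 0.0466), but AN replicate 3 was the only one of these 6 arrays above background, and without it the call was lost (adjusted p = 0.209). Without any 1 EN array the adjusted p was 0.118 to 0.129. In AN it fell by 1.96 log2 units from P0 to 3 W (adjusted p = 0.0417), with adjusted p of 0.0592 to 0.252 when any array but AN replicate 3 of 3 W was left out. To 5 W it fell by 2.75 (adjusted p = 0.00618), and without replicate 3 of 5 W the difference was -1.79 (0.0528). A second Nrg3 probe read lower than at P0 in EN, at least 2.2-fold by 1 W, and in AN by 1.72 at 5 W. It met the filter only through EN at P0, a choice that favoured a fall from there, so it is no separate support. In AN it read 6.76, 5.86 and 5.81 at P0 and 5.02, 4.88 and 4.83 at 1 W (adjusted p = 0.0683), where the first probe showed no such step, and no AN-EN difference at 1 W was called with it.

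Nrg2, another neuregulin of neurons, showed the same order at 1 W. AN read 7.06, 7.01 and 6.88 and EN 3.28, 4.40 and 5.55, with 1 of the 3 EN arrays well above background. The difference was 2.58 ± 0.61 (adjusted p = 0.0207), and leaving out any array of 1 W but EN replicate 3 moved the adjusted p to between 0.0652 and 0.149. In EN it fell from P0 by 2.27 at 1 W (adjusted p = 0.0101, and 0.0714 without EN replicate 1 of 1 W) and by 2.04 at 3 W (0.00907). At 3 W the AN array of replicate 3 read 7.99, against 5.76 and 5.12 for the others. The other Nrg2 probes did not meet the filter and were not tested. At 1 W their means were 4.44 and 3.53 in AN and 4.29 and 2.75 in EN, with no EN array well above background.

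For Nrg1 the probes of the EGF-like domain and of the carboxy-terminal end followed Nrg2 and Nrg3. The carboxy-terminal probe read 8.82, 9.11 and 9.79 in EN at P0, 5.59, 6.12 and 6.74 at 1 W, 7.27, 7.18 and 7.17 at 3 W, and 5.75, 5.87 and 6.54 at 5 W. In AN it read 9.12, 10.10 and 9.10, then 9.63, 9.97 and 9.80, then 7.70, 7.19 and 11.49, then 8.04, 7.98 and 6.82 at the same ages. It stayed high in AN at 1 W, when it had dropped in EN.

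At 1 W the carboxy-terminal probe was 3.65 log2 units higher in AN (adjusted p = 0.00713, and 0.0516 without EN replicate 1). The EGF-like probe was at least 2.9-fold higher (adjusted p = 0.0228), since none of its 9 EN arrays after P0 was well above background. A further Nrg1 probe, at chr8:32925808-32925867, was at least 6.15-fold higher (adjusted p = 0.0168). Against P0, the carboxy-terminal probe fell in EN by 3.09 at 1 W (adjusted p = 0.00393) and by 3.19 at 5 W (0.0011), and in AN by 1.83 at 5 W (0.0426).

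These neuregulin probes moved with the ganglion neuron list on the same arrays. At 1 W, 9 of the 15 tested genes of that list were higher in AN and none lower. The list mean was 8.20 ± 0.50 in EN and 11.11 ± 0.13 in AN, and Avil, Scn10a and Prph of that list, the last also a gene of motor neurons, read 8.4, 8.0 and 9.4 in EN against 13.7, 13.0 and 14.3 in AN. On the 3 W AN array of replicate 3, where the list mean was 12.15, the carboxy-terminal probe of Nrg1, Nrg2 and Nrg3 each had their highest value of the 3 W arrays. The motor neuron list was also lower in EN at 1 W (7.05 against 8.83 in AN), as was the central neuron list (7.33 against 9.06). Both were highest on that 3 W AN array (9.93 and 9.95), so the course was not particular to the ganglion neuron list. Neuronal RNA in the dissected roots and expression within the fibres cannot be told apart on these arrays, and the part of the former in the neuregulin results was not tested.

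**Figure D3:**
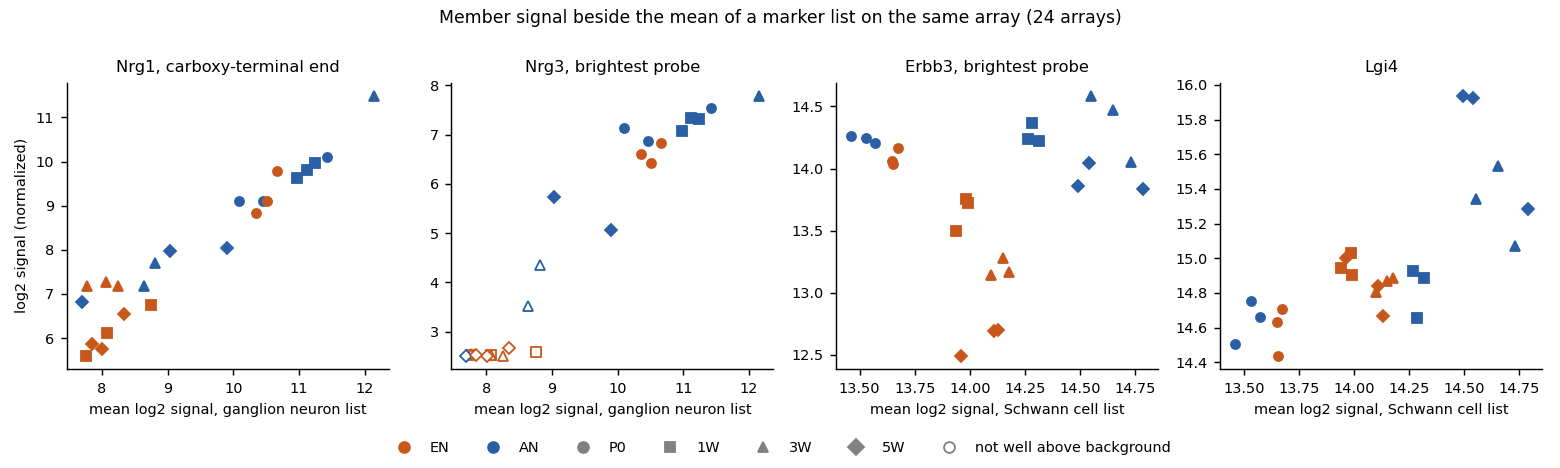
Normalized log2 signal of a probe (y axis) beside the mean log2 signal of a marker list on the same array (x axis), for 24 arrays, by fibre (colour) and age (symbol), with open symbols where the probe was not well above background. Nrg1 (carboxy-terminal end) and Nrg3 lie high where the ganglion neuron list is high, up to the 3 W AN array at a list mean of 12.15, whereas EN arrays with a Schwann cell mean near 14 range from 13.75 down to 12.49 for Erbb3.

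The brightest probe of Nrg1 gave another course. It belongs to a predicted transcript and lies at chr8:33994810-33994869 and is 925.8 kb upstream of the Ig-like probe. EN read 9.18, 8.80 and 8.65 at P0, 9.37, 8.92 and 8.66 at 1 W, 7.60, 7.80 and 7.64 at 3 W, and 8.87, 8.85 and 7.62 at 5 W. In AN the 5 W values were 8.91, 8.56 and 7.01. Its fall from P0 to 3 W was called in both roots, by 1.20 in EN (adjusted p = 0.0125) and by 1.44 in AN (0.00393).

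The low values were those of slide 4: all 8 arrays of that slide lay between 7.01 and 7.80 and all 16 others between 8.51 and 9.37. Of all tested probes, 2.52% had every array of slide 4 below every other array. With slide as a block the 3 W difference from P0 became 0.38 in EN (adjusted p = 0.0731) and 0.14 in AN (0.531). The fall with age of this probe and the slide cannot be told apart in the fit without the block. With the block, every 3 W difference from P0 or 1 W rests on replicate 3 of 5 W, the only arrays of another age on slide 4.

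The Ig-like probe of Nrg1 went the other way. EN read 5.55, 5.34 and 6.17 at P0 and 6.51, 6.71 and 6.82 at 3 W, 1.00 higher (adjusted p = 0.0235). It too moved with the slide, since at 5 W replicate 3 read 6.92 in EN and 6.60 in AN against 5.18 to 5.80 for the other 4 arrays, and with slide as a block the difference was -0.15 (adjusted p = 0.759). The falls of the carboxy-terminal probe in EN at 1 W and 5 W were -3.05 (adjusted p = 0.00828) and -3.25 (0.00522) in that fit.

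Erbb4 shared the slide pattern. The probe that includes the alternative exon read 11.34, 11.07 and 11.06 in EN at P0, 10.07, 10.30 and 10.20 at 3 W, and 11.17, 11.54 and 10.28 at 5 W. In AN the 5 W values were 11.05, 11.17 and 9.61. Slide 4 arrays lay between 9.61 and 10.30 and the others between 10.77 and 11.60. Its calls at 3 W against P0 (-0.96 in EN, adjusted p = 0.0208, and -1.31 in AN, 0.00306) turned to 0.58 (0.0055) and 0.23 (0.237) with slide as a block. These block values too rest on replicate 3 of 5 W. Between AN and EN no Erbb4 difference was called in the fit without a block, and the one at 5 W was -0.38 (95% interval -1.09 to 0.32). The probe that skips the exon was not well above background on any of 24 arrays, at 2.61 to 4.22.

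**Figure D4:**
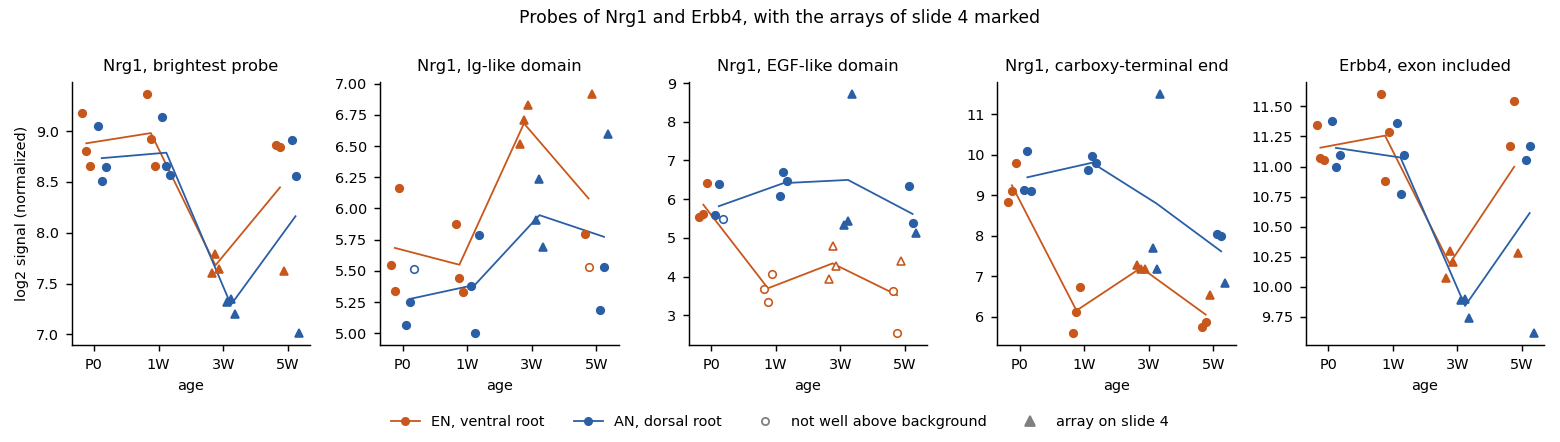
Normalized log2 signal (y axis, a separate scale in each panel) by age for 4 probes of Nrg1 and the exon-including probe of Erbb4. Points are arrays, triangles are arrays on slide 4, open symbols were not well above background, and lines join group means. Triangles form the low values of the brightest Nrg1 probe (7.01 to 7.80) and of Erbb4 (9.61 to 10.30), while the EGF-like and carboxy-terminal probes separate AN from EN at 1 W.

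Against P0, 7 of the 10 genes were called in EN at 3 W, 2 higher and 5 lower, where 55% of all probes were called, and 3 at 5 W, where 54.1% were. In AN none was called at 1 W (21.7% of all probes), 5 at 3 W (51.7%) and 4 at 5 W (50.6%). From 1 W to 3 W, 4 genes were called in each root, beside 27.4% of all probes in EN and 29.9% in AN. With slide as a fixed block, the counts at 3 W against P0 were 4 in EN and 2 in AN, beside 15236 and 14448 of 36409 probes. The count in EN at 5 W was then 6, beside 20692 probes. From 1 W to 3 W the counts were 1 in EN and 2 in AN, beside 6680 and 8637 probes. Nrg1 and Erbb4 turned from lower to higher at 3 W in both roots in that fit.

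Among the proteases, Bace1, which cleaves neuregulin 1 and promotes its signalling, rose in both roots. EN read 11.48, 11.66 and 11.73 at P0 and 12.09, 12.15 and 12.19 at 3 W. AN read 11.67, 12.03 and 11.87 at P0 and 12.15, 12.34 and 12.60 at 3 W. The rise was 0.52 in EN (adjusted p = 0.0043) and 0.51 in AN (0.00513), and 0.43 and 0.41 at 5 W (0.0142 and 0.0197, and up to 0.0678 and 0.105 with 1 array left out). Bace1 was 0.21 to 0.26 higher in AN than in EN at the 4 ages, with no call. AN was above EN in all 12 pairs, by 0.07 to 0.41.

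Adam17, known to cut neuregulin 1 in a way that limits its signal, rose in EN by 0.56 from P0 to 3 W (adjusted p = 0.00573), where all 3 EN arrays read 11.83 or more. AN read 11.64, 11.35 and 10.89, 0.61 lower (adjusted p = 0.0259). That AN-EN difference was -0.41 without AN replicate 3 (adjusted p = 0.13), and without any 1 EN array the adjusted p was 0.061 to 0.108. A second Adam17 probe rose from P0 to 3 W in both roots and gave an AN-EN difference of -0.25 (adjusted p = 0.533). With the remaining Adam17 probe that difference was -0.88 (adjusted p = 0.0908), and its changes from P0 to 3 W were 0.53 in EN and -0.19 in AN, neither called. No P0 array shared a slide with a 3 W array. Over 24 alternatives with other settings, probes or arrays, the rise in EN lost its call in 7 (limma adjusted p up to 0.258). Within slide 2, the brightest probe changed by 0.10 in EN from P0 to 5 W.

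Of the other genes of neuregulin shedding and of gamma-secretase, 12 of 12 were tested. Bace2 was lower in AN at every age, with differences of -1.04, -0.77, -0.69 and -0.63 in order of age (adjusted p between 0.0029 and 0.0154), and it rose to 5 W by 2.34 in EN and 2.76 in AN. Adam10 was the other gene with an AN-EN call, -0.50 at 3 W, and it rose by 1.93 in EN and 1.79 in AN to 5 W. Aph1c, a subunit of gamma-secretase, rose by 1.59 and 1.73. Against P0 at 5 W, 6 of 12 were higher and 3 lower in EN, and 4 higher and 2 lower in AN, beside 54.1% and 50.6% of all probes called.

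The relatives of Lgi4 and Adam22 (Lgi1, Lgi2, Lgi3, Adam11 and Adam23, which neurons express and which act at synapses) were mostly higher in AN. Of 5 tested, 3 were higher at 1 W, 3 at 3 W and 4 at 5 W, beside 2.74%, 3.07% and 3.52% of all probes, and none was lower. At 5 W the differences were 2.35 for Lgi2, 2.55 for Lgi3, 1.47 for Adam11 and 1.94 for Adam23, with 0.09 for Lgi1. In EN 4 of 5 fell from P0 to 5 W, by 1.42 (Adam11) to 3.16 (Lgi2). The median difference of these 5 genes was 1.58, 1.92 and 1.94 at 1 W, 3 W and 5 W, beside 0.90, 1.96 and 2.78 for the central neuron markers and 3.62, 2.35 and 1.20 for the ganglion neuron list, and the part of either in it was not tested.

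**Figure D5:**
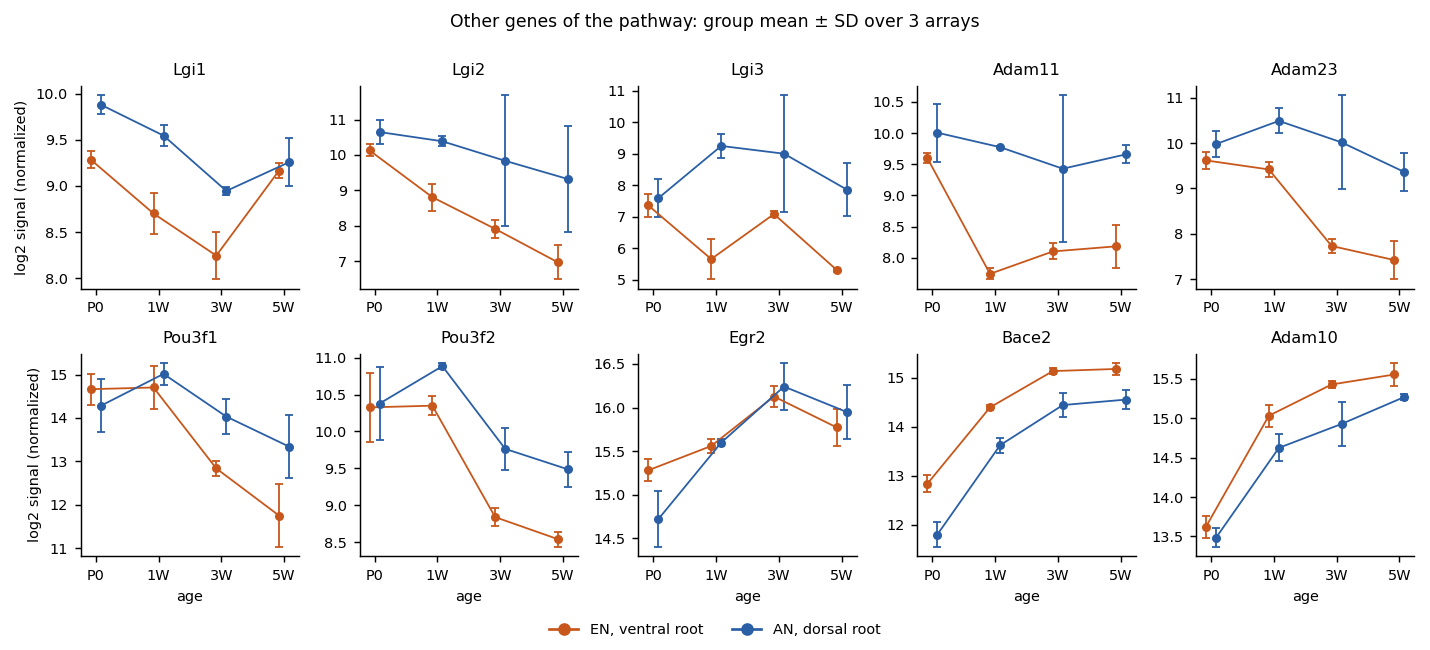
Group mean ± SD over 3 arrays (log2 signal, y axis, a separate scale in each panel) by age for the 5 relatives of Lgi4 and Adam22 and for 5 other genes of the pathway, which were chosen after their values were seen. Pou3f1 and Pou3f2 fall in EN to lower values than in AN, and Bace2 lies lower in AN at all 4 ages.

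Among 12 tested Schwann cell transcription and myelin genes known to respond to neuregulin signals, 6 were higher and 2 lower in EN at 5 W than at P0, and 8 higher and 1 lower in AN, where 54.1% and 50.6% of all probes were called. The 2 that fell in EN were Pou3f1 (-2.92) and Pou3f2 (-1.78), POU-domain factors of Schwann cells that are not yet fully myelinating. At 5 W these were the 2 genes of the list called higher in AN, with differences of 1.59 (adjusted p = 0.0185) and 0.95 (0.0156). Mbp, a myelin protein, rose by 2.66 in EN and 3.94 in AN, and was lower in AN at P0 (-1.25, adjusted p = 0.0416). Egr2, a regulator of myelination named here after its values were seen, rose by 0.49 in EN and 1.23 in AN.

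Of 9 other ErbB ligands and receptors, 5 were tested. Hbegf, a ligand of the EGF receptor, rose to 5 W by 2.62 in EN and 1.67 in AN, and was 0.85 lower in AN at 3 W (adjusted p = 0.0186). Egfr itself was 0.90 lower in AN at 5 W (adjusted p = 0.00585), where it had fallen by 1.15 since P0. Tgfa, another ligand of that receptor, rose by 1.01 in EN. Among 10 scaffolds and inhibitors, Spry1, an inhibitor of receptor tyrosine kinase signalling, was lower in AN at 1 W (-0.68) and 3 W (-0.69), and it was the only one called between the roots. Errfi1, an inhibitor of ErbB kinases, rose to 5 W by 2.09 in EN and 1.43 in AN, and Dusp6, a phosphatase of ERK, fell by 1.63 and 1.34.

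Downstream, of 30 adaptor and kinase genes tested, 7 were higher and 7 lower in EN at 5 W than at P0, and 8 higher and 6 lower in AN, against the same 54.1% and 50.6%. Mapk3, which encodes the kinase ERK1, rose by 2.31 in EN and 2.0 in AN, and Pik3r1, a phosphoinositide 3-kinase subunit, by 1.58 and 1.72. Medians over the 30 were -0.04 in EN and 0.03 in AN, beside 0.04 and 0.03 for all tested probes.

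The genes whose pattern over the 24 arrays was most like that of a member were sought among 16904 genes by Pearson's r, given as a description. For Erbb3 they were Frat1 (0.955), Kcna6 (0.951) and Slitrk5 (0.948), and Kcna6 also came second for its coding probe (0.869). For Lgi4 they were Xndc1, Rbm5 and Fam193b (0.861 to 0.888). Nrg3 was most like Grm8 (0.983), a neuronal glutamate receptor, and Nrg2 most like Chga (0.963), of neuroendocrine granules. The Erbb4 probe had the brightest Nrg1 probe among its 3 closest (0.966), a pair of probes that share the slide 4 pattern.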

How the data were processed

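Each sample was hybridised alone, with Cyanine-3, to an Agilent 8 × 60K array, and spot intensities were read with Feature Extraction 10.7.1.1, per the file headers. The authors then normalized them by the quantile algorithm in GeneSpring, and the deposited table holds these log2 values, used here uncentred. Scanner intensities served for the background flags, slides and alternatives. The 36409 probes well above background on 3 arrays of a group entered 1 limma fit (3.58.1, R 4.3.3) of 8 group means with eBayes, and p-values were adjusted by Benjamini-Hochberg over all of them. Where no array of a group was above background, folds are lower bounds against the lowest detected signal of each array. The methods' own thresholds, slide and scan date as blocks, array weights, other filters and normalizations, other probes, and each array left out were tried as alternatives. Figures were drawn with matplotlib 3.10.9. Named genes were all 10 members, of each pathway list up to 3 called genes of largest change between roots and from P0 to 5 W (a list of up to 5 in full), and the 3 genes most alike to a member. Some genes of these lists are not reported here. The members and lists were chosen with earlier results of these data known. Replicate numbers were taken to pair AN and EN: same-numbered arrays shared a slide, and their deviations from the group means correlated at 0.107 to 0.646 in all 12 pairs. P-values measure the spread between collections of pooled animals.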

Additional observations from a re-analysis of the deposited data

Results flagged for a closer look

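The AN-EN difference of Erbb3 was larger at later ages than at P0 by a test of the difference itself. It exceeded that at P0 by 1.03 log2 units at 3 W (adjusted p = 0.00979, limma interaction) and by 1.14 at 5 W (adjusted p = 0.00313). Leaving out any 1 of the arrays involved gave 0.92 to 1.19 at 3 W and 1.07 to 1.18 at 5 W, all with an adjusted p below 0.05. The call was lost when all arrays of replicate 1 were left out (0.98 at 3 W, adjusted p = 0.485, and 1.11 at 5 W, 0.267) or all of replicate 2 (0.91, 0.379, and 1.05, 0.277), in fits with 2 arrays a group. For the coding probe of Erbb3 the differences were 0.72 (adjusted p = 0.438) and 1.09 (0.0959).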

How the results depend on the processing

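The 42 called differences of single members were the base of 585 outcomes under other settings, of which 468 kept direction and call, 94 lost the call and 23 changed direction, and of 264 with 1 array left out, of which 209 kept both, 55 lost the call and 0 changed direction. With all arrays of 1 replicate number left out, 65 of 126 kept both and 61 lost the call. With 1 array or 1 replicate number left out, the number of members called was 0 to 0 for AN-EN at P0, 0 to 3 at 1 W, 1 to 4 at 3 W and 1 to 6 at 5 W. In EN it was 0 to 3, 3 to 7 and 2 to 4 against P0 at 1 W, 3 W and 5 W, 1 to 4 from 1 W to 3 W and 0 to 3 from 3 W to 5 W. In AN it was 0 to 0, 2 to 7, 1 to 3, 1 to 7 and 0 to 7, and for the interactions 0 to 1, 0 to 1 and 0 to 3. Between the roots, keeping only probes above background on all 24 arrays gave 1 at 1 W. At 3 W, array weights gave 5, only the groups compared 1, slide as a fixed block 6, the replicate block of pairs 8 and the next brightest probes 0. At 5 W, weights, slide as a random block and scan date gave 4, only the groups compared 0, and the fixed slide block, the replicate block and leaving out 3 arrays 5. Those 3 arrays, replicate 3 of 3 W AN and of both 5 W groups, were chosen after seeing the data, as were the next brightest probes. In EN against P0, the all-array filter gave 1 at 1 W. At 3 W both slide blocks gave 4, and scan date and the methods' thresholds 3. At 5 W the fixed slide block gave 6, and scan date, 3 arrays left out and next probes 5. In AN, weights and 3 arrays left out gave 1 at 1 W. Only the groups compared and the methods' thresholds gave 3 at 3 W and 2 at 5 W, and the slide blocks and scan date 2 at 3 W. From 1 W to 3 W in EN, the fixed slide block and scan date gave 1, and the random block, methods' thresholds and next probes 2. In AN weights gave 8, 3 arrays left out 7, and slide blocks and scan date 2. From 3 W to 5 W in EN, weights and 3 arrays left out gave 3, and only the groups compared, methods' thresholds and next probes 0. In AN weights gave 5, 3 arrays left out 7, the replicate block by number 2, and scanner signal at the 75th percentile, no filter, only the groups compared, the fixed slide block, scan date, methods' thresholds and next probes 0. For the interaction at 1 W, weights, only the groups compared and 3 arrays left out gave 1 and methods' thresholds 2. At 3 W only the groups compared and next probes gave 0. At 5 W weights, slide blocks, scan date and both replicate blocks gave 2, 3 arrays left out 3 and next probes 0. Direction turned for Nrg1 at 3 W against P0 with slide as a block (EN 0.38, AN 0.14), with scan date (EN 0.22), and by its Ig-like (EN 1.00, AN 0.67) and EGF-like probes (AN 0.68). Against 1 W it turned for Nrg1 with slide (EN 0.34, AN 0.14), scan date (EN 0.24, AN 0.044) and the Ig-like (EN 1.13, AN 0.56), EGF-like (EN 0.64, between groups not above background, AN 0.084) and carboxy-terminal probes (EN 1.06). Erbb4 turned at 3 W against P0 with slide (EN 0.58, AN 0.23) and scan date (EN 0.32), and against 1 W with slide (EN 0.38, AN 0.21) and scan date (EN 0.23, AN 0.057). Erbb3 in AN from P0 to 5 W was 0.025 by its coding probe. The cause was not tested. With 3 arrays a group the number of arrays limits the precision, and Nrg2, Nrg3 and the EGF-like probe lie near background in EN.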
